A study of Mus musculus with 11 samples.

Results

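Colon macrophages labelled EP4 knockout were compared late and at the start of a colitis course, using the 3 libraries titled day 39 against the 3 titled day 0 of the same strain, 6 of the 11 libraries of the study. The members were chosen by title alone. Dextran sodium sulphate (DSS) was given at 2.5% in drinking water over 5 days. The labels list this for the day 0 libraries as well, so whether day 0 mice had yet received DSS is not settled. The strain is labelled Csf1r-EP4-/-, after Csf1r, the gene of the receptor for a macrophage growth factor. EP4 is a prostaglandin E2 receptor encoded by Ptger4. The labels give neither the deleted exons, nor the age or number of mice, nor whether mice were pooled, and the deposited files name day 35 where the titles say day 39. The other 5 libraries came from wild-type (WT) mice with the same DSS label, 2 at day 0 and 3 at day 39. These WT libraries are used here to ask whether the change over time differed between the genotypes. They also enter the fit behind the KO calls, which shares its scaling and estimate of spread over all 11 libraries; a fit of the 6 KO libraries alone made 5 calls in place of 11. All 11 were sorted from colon as CD45+CD11b+Ly6G-Ly6C-MHCII+CD64+ cells, and total RNA was made into 3′ end libraries, whose reads lie near the poly(A) end of each transcript.

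DSS injures the lining of the colon, and the tissue repairs itself once the DSS is withdrawn. Resident colon macrophages lie beneath the epithelium, take up bacteria and dying cells, present antigen on MHC class II and release factors that act on epithelial renewal. Prostaglandin E2 acts on them through EP4, which raises cyclic AMP and is known to restrain inflammatory cytokine production.

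Early and late below stand for day 0 and day 39. Ptger4 was examined first, because it is the gene named as deleted. Its counts were 1350, 0 and 890 at day 0 and 1, 8 and 4501 at day 39. Ptger4 was thus well above 0 in 3 of the 6 libraries labelled KO. Whether the counted 3′ end lies inside the deleted part is not known, and the reason for these counts was not tested. In WT, Ptger4 had 0 and 0 counts early and 1481, 152 and 7286 late, so it did not separate the labelled genotypes. The KO groups overlapped, with a mean of 91.7 CPM (the count scaled to library depth) ± 112 (SD, n = 3) at day 0 and 433 CPM ± 748 (n = 3) at day 39 (exact permutation test, two-sided, p = 0.8, smallest possible 0.1). KO and WT below therefore mean libraries labelled so. Sort markers were uneven: H2-Ab1, an MHC class II chain, was at 11337, 3879 and 2433 CPM early and 3311, 5731 and 6549 CPM late, with overlap (exact permutation p = 0.9). Ptprc (CD45) had 2407, 1 and 104 counts early and 215, 5 and 0 late. Itgam (CD11b) had 132, 2127 and 0 counts and then 3, 3336 and 4. Fcgr1 (CD64) had 2059, 0 and 0 counts and then 1, 111 and 2063. Of the Ly6C genes, which the sort selects against, Ly6c1 had 2323 counts in KO day 0 library 2 and Ly6c2 had 459 in KO day 0 library 1 and 2100 in KO day 39 library 1; the 2 are near-identical copies, so their split is uncertain. For CD45, CD11b and CD64 the 2 groups overlapped, and each gene was at 5 counts or fewer in at least 1 library of both groups. Csf1r was at 1506, 917 and 798 CPM at day 0 and 493, 783 and 383 CPM at day 39. The Csf1r groups did not overlap (exact permutation p = 0.1, the smallest possible), but the edgeR test did not call the gene (adjusted p = 0.826).

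The KO day 0 libraries held 5982548, 8284551 and 14207919 counts, and the KO day 39 libraries 4613015, 4867194 and 4695406. Replicates agreed poorly gene by gene: Spearman correlations across tested genes were 0.219 to 0.312 within KO day 0, 0.338 to 0.387 within KO day 39 and 0.207 to 0.271 between them. Of 6987 tested genes, 410 had at least 100 counts in each of the 6 libraries and 1908 had that in a single one. The common biological coefficient of variation was 2.48. KO day 0 libraries 2 and 3 stood apart: they held most of the counts of epidermal, skeletal muscle and collagen genes, described below. WT libraries were uneven in the same lists: WT day 0 library 2 held 17259 CPM of epidermal and 15235 CPM of skeletal muscle genes, and WT day 39 library 2 held 12180 and 22609 CPM. Against KO day 0 library 1 alone, called genes other than Rn45s did not pass: Pvalb had an adjusted p-value of 1 and the others, among them Sprr2a2, Lgals6, Sycn, Nfkbiz, Malat1 and Rhbdd3, one of 0.701 in edgeR. With 1 library in that arm the test has less power. The log2 fold change of Sprr2a2 stayed near that with all 3 day 0 libraries, at 5.96. Those of Sycn and Rhbdd3, at 15.52 and 15.73, could hardly move, since both genes were at 0 in all 3. Lower values were found for Ubxn4 (6.545 from 8.048), Nfkbiz (6.335 from 7.757), Mgat4b (12.09 from 13.61) and Malat1 (1.126 from 1.553). Higher values were found for Lgals6 (15.24 from 13.16) and Rn45s (1.08 from 0.789).

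Between day 0 and day 39, 11 genes changed in KO macrophage libraries in the edgeR quasi-likelihood test with Benjamini-Hochberg adjustment, 0.157% of the genes tested. There were 9 rises (0.129%) and 2 falls (0.0286%). The rises were Sprr2a2 and Lgals6, which are genes of gut epithelium, Sycn, a gene of secretory granules, Nfkbiz, an NF-kB cofactor, Ubxn4, Mgat4b and Rhbdd3, which encode proteins of the secretory pathway or its membranes, and the RNAs Malat1 and Rn45s. The falls were Tnnc2 and Pvalb, both calcium-binding proteins of fast skeletal muscle. Without KO day 0 libraries 2 and 3, which leaves 1 day 0 library assumed to vary like the other groups, 2 genes were called, both higher, and Rn45s was the single one shared with the 11. An unadjusted p-value under 0.05 was found for 1273 genes (18.2%), 757 higher (10.8%) and 516 lower (7.39%). The plots of counts per library and of fold change against mean level show both the called genes and the breadth of the rest.

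**Figure D1:**
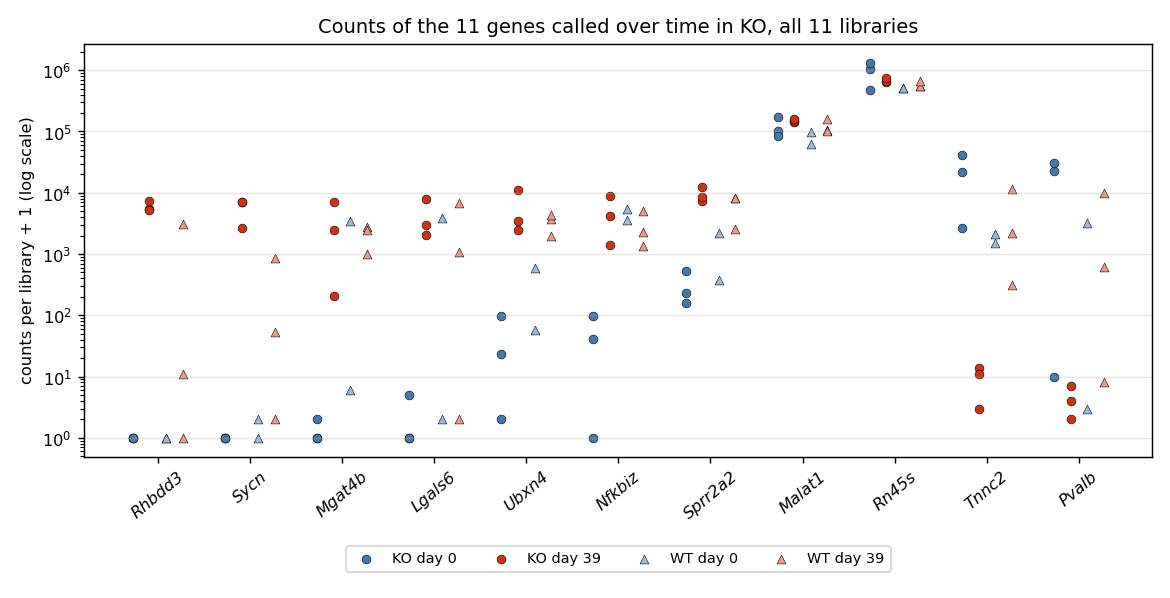
Counts of the 11 called genes in each library (points; log axis, 1 added), with KO libraries as circles, WT libraries as triangles, day 0 in blue and day 39 in red. Rhbdd3 and Sycn were at 0 in all 3 KO day 0 libraries, and Tnnc2 and Pvalb were at 13 counts or fewer in all 3 KO day 39 libraries.

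**Figure D2:**
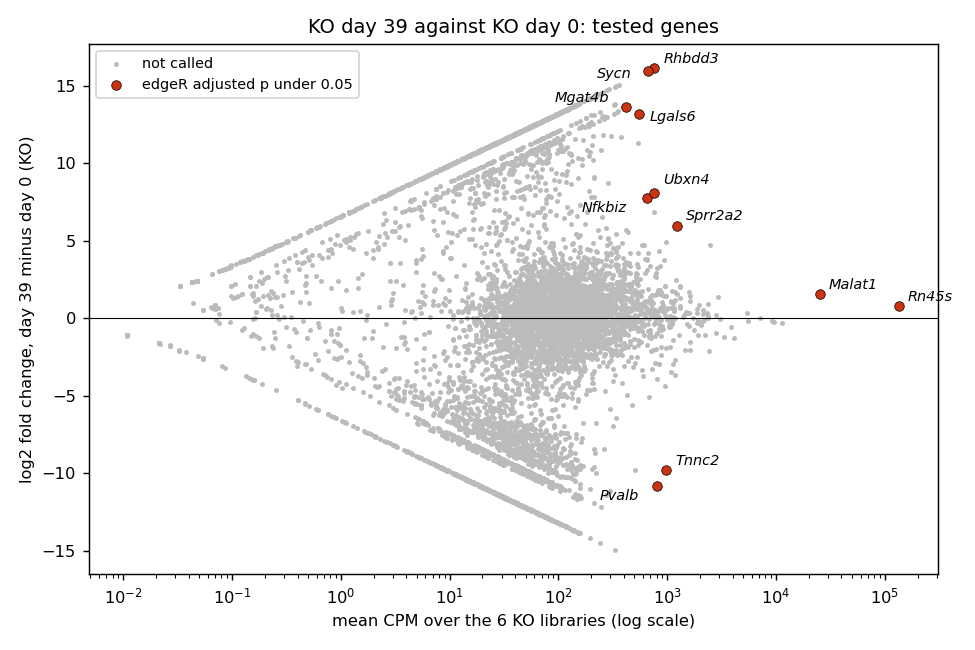
Log2 fold change of KO day 39 against KO day 0 (edgeR fit) against mean CPM over the 6 KO libraries (log axis) for tested genes with a KO count. Grey points are genes that did not pass, red points the 11 that did, and the straight edges of the cloud are genes with counts in 1 group only.

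Sprr2a2 encodes a small proline-rich protein of the epithelial cornified envelope that gut epithelium also makes in response to bacteria. It had 230, 530 and 155 counts across the day 0 KO libraries and 7299, 8580 and 12576 across those of day 39. The 2 days did not overlap. The mean was 38.4 CPM ± 29.0 (SD, n = 3) at day 0 and 2402 CPM ± 1062 (n = 3) at day 39, a ratio of 62.5, and the log2 fold change was 5.97 with an SE of 1.37 (edgeR adjusted p = 0.011). The call was lost without KO day 0 replicate 3 (edgeR adjusted p = 0.176) or KO day 39 replicate 3 (0.149). The count belongs to a family rather than to 1 gene. All 502 windows of 50 bases in the last 300 bases of Sprr2a2 transcripts also occur in other transcripts (GENCODE mouse release 21), among them Sprr2a1, Sprr2a3 and Sprr2b. Sprr2a1 had 0 counts in all 11 libraries, while Sprr2a3 had 100, 288 and 0 at day 0 and 4255, 793 and 4546 at day 39 (edgeR adjusted p = 0.273). How the authors counted reads that match several copies is not given in the sources used here. The 250 bases upstream of the Sprr2a2 start site are printed to show how alike the copies are: all 250 are identical to those upstream of Sprr2a1 (RefSeq, GRCm38.p6, chr3:92250397-92250646, plus strand, no capitals since no motif searched for below was marked).
Sprr2a2: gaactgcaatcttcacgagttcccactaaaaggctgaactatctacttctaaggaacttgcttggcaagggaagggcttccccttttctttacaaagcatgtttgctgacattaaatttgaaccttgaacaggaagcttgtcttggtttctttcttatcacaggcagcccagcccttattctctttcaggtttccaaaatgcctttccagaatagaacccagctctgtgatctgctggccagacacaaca

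Lgals6 encodes galectin-6, a lectin of the gut epithelium that is closely related to galectin-4. It had 0, 0 and 4 counts across the day 0 KO libraries and 7833, 2047 and 2944 across those of day 39, without overlap. Pooled over the libraries this was a 7572-fold rise (95% counting interval 2956 to 27794). The log2 fold change was 13.16 with an SE of 2.72 (edgeR adjusted p = 0.00148), and the call was lost without KO day 39 replicate 1 (adjusted p = 0.112). Lgals4 itself had 0 counts in every KO day 0 library and 53, 0 and 23 in KO day 39. Lgals6 is not in GENCODE mouse release 21 under this symbol, so sequence shared between the 3′ ends of the pair was not assessed and the Lgals6 count is uncertain.

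The list of 32 colonocyte genes, which includes Sprr2a2 and Lgals6, had a higher summed level at day 39. Of its 26 tested genes, 2 were called higher and 0 lower, 25 had a log2 fold change above 0 and 16 had an unadjusted p-value under 0.05 with a rise, against 10.8% of all tested genes. The median log2 fold change was 7.44, against 0 for all tested genes. The 2 calls were Sprr2a2 and Lgals6 again, in a list chosen with earlier results known, so their number says nothing further. Members at 0 in every KO day 0 library, such as Guca2a, could differ among the KO libraries in 1 direction only. These tallies and the median are therefore descriptions. The summed level was 2551, 226 and 1427 CPM in KO day 0 and 13130, 10241 and 19420 CPM in KO day 39, a ratio of means of 10.2, and 5.59 against KO day 0 library 1 alone. Every day 39 sum was above every day 0 sum under all 4 scalings tried. Phgr1, a small gut epithelial protein, had 8, 0 and 0 counts and then 2719, 756 and 8328 (edgeR adjusted p = 0.129). Guca2a, the precursor of guanylin, which drives fluid secretion, was at 0 throughout day 0 and reached 500, 3170 and 4321 counts at day 39 (edgeR adjusted p = 0.273). Neither Phgr1 nor Guca2a passed; both were named among genes whose groups do not overlap, so their separation is a description. In the colonocyte list 12 genes were higher without overlap, against 8.07% of all tested genes, with the same limit. Lypd8, which keeps flagellated bacteria away from the epithelium, and Car1, a carbonic anhydrase, overlapped between the groups. Lypd8 had 3628, 0 and 291 counts early and 9160, 7205 and 785 late, and Car1 had 2257, 0 and 0 and then 543, 5712 and 8785 (edgeR adjusted p = 0.273 for both). In these sorted samples more cells of a type and more RNA per cell cannot be told apart, nor can fewer cells and less RNA per cell.

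Goblet and secretory cell genes had no call, with 13 of 20 tested. At an unadjusted p-value under 0.05, 5 were higher, against 10.8% of all tested genes. Zg16 and Reg3g, both among these 5, were at 0 in every KO day 0 library. Such members could differ among the KO libraries upward only. The tally and the median of this list are therefore descriptions. The summed level of the list was 537, 768 and 416 CPM in KO day 0 and 2748, 1157 and 6004 CPM in KO day 39, and the groups did not overlap. Zg16, a lectin of goblet cell mucus, was at 0 throughout day 0 and reached 1399, 778 and 5215 counts at day 39, at least 1897-fold above a floor of 3 counts in each library (edgeR adjusted p = 0.265). Muc2, the main gel-forming mucin, had 959, 105 and 0 counts and then 4539, 1631 and 5534, and Reg3g, an antibacterial lectin, had 0, 0 and 0 and then 1334, 611 and 2361 (edgeR adjusted p = 0.273 for both). Neither Muc2 nor Reg3g passed, although their groups did not overlap. The goblet cell median log2 fold change was 3.25, and 9.36 without KO day 0 libraries 2 and 3.

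Sycn encodes syncollin, a protein of zymogen granules best known from the exocrine pancreas. It was not counted in any KO library of day 0 and reached 7106, 7001 and 2631 counts at day 39, or 1326 CPM ± 542 (SD, n = 3). This was at least 3739-fold above the day 0 floor of 3 counts per library, with a log2 fold change of 15.93 with an SE of 3.45 (edgeR adjusted p = 0.0038). Leaving out KO day 0 replicate 2 or 3, or KO day 39 replicate 1 or 2, ended the call (edgeR adjusted p = 0.0508, 0.0839, 0.281 and 0.109). Of the 21 genes on the pancreatic acinar list, Sycn among them, 3 were tested, Sycn alone being called. All 3 were at 0 in every KO day 0 library, so among the KO libraries they could differ in 1 direction only, and their number supports nothing. The second was Zg16, given above with the goblet cell genes. Of the 21, 17 had 0 counts in all 6 KO libraries, including the trypsinogen gene Prss1 and the lipase gene Pnlip. Cela1, a pancreatic elastase gene, the third, was at 0 early and had 2, 173 and 3 counts late (edgeR adjusted p = 0.283). Sycn overlaps Samd4b on the opposite strand, and the strand setting of the counting is not given in the sources used here.

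**Figure D3:**
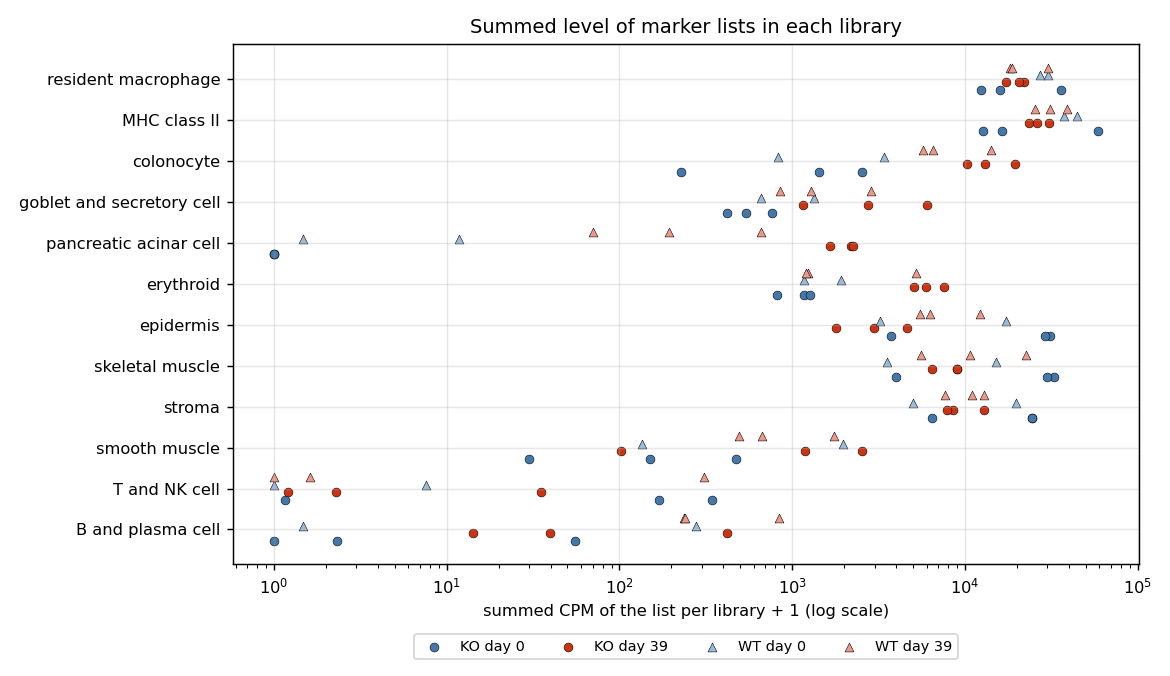
Summed CPM of 12 marker lists in each library (points; log axis, 1 added), KO as circles and WT as triangles, day 0 in blue and day 39 in red. Colonocyte, goblet, pancreatic acinar and erythroid sums of the KO day 39 libraries lie above those of KO day 0, and KO day 0 libraries 2 and 3 hold the 2 highest epidermis and skeletal muscle sums.

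Nfkbiz encodes IkB-zeta, a nuclear protein induced by Toll-like receptor and interleukin-1 signals that is needed for a second wave of NF-kB target genes. It had 95, 0 and 40 counts across the day 0 KO libraries and 4139, 1377 and 8785 across those of day 39, and the groups were well apart. The mean was 5.96 CPM ± 8.16 (SD, n = 3) and then 1291 CPM ± 1146 (n = 3), with a log2 fold change of 7.76 with an SE of 1.88 (edgeR adjusted p = 0.0267). The call was lost without KO day 0 replicate 2 or 3, or KO day 39 replicate 1 or 3 (edgeR adjusted p = 0.287, 0.213, 0.0523 and 0.46). Nfkbiz was high at both times in WT, where its counts were 5419 and 3614 and, later, 2291, 1369 and 5072, so the KO day 0 libraries were the low ones. Of the 14 tested NF-kB subunits and inhibitors Nfkbiz was the 1 called. Nfkbia, the inhibitor that NF-kB induces to shut itself off, had 20653, 7367 and 9527 counts early and 5644, 10663 and 9538 late, with overlap (edgeR adjusted p = 0.946).

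Ubxn4, Mgat4b and Rhbdd3 encode proteins of the secretory pathway or its membranes. Ubxn4, a membrane protein of the endoplasmic reticulum that recruits the ATPase p97 for the disposal of misfolded proteins, had 96, 1 and 22 counts across the day 0 KO libraries and 2448, 3519 and 11017 across those of day 39. Its groups did not overlap, and the log2 fold change was 8.05 with an SE of 2.0 (edgeR adjusted p = 0.0377). The Ubxn4 call was lost on leaving out any KO library except KO day 0 replicate 1, with adjusted p-values of 0.357 and 0.33 without KO day 0 replicate 2 and 3 and of 0.0504, 0.0508 and 0.46 without KO day 39 replicate 1, 2 and 3. Mgat4b, a Golgi enzyme that adds branches to N-linked sugar chains, had 1, 0 and 0 counts across the day 0 KO libraries and 202, 2457 and 6931 across those of day 39. The 3 day 39 values span a wide range but all lie above day 0, with a pooled rise of 22649-fold (95% counting interval 4064 to 894671) and a log2 fold change of 13.61 with an SE of 3.09 (edgeR adjusted p = 0.00959). Without KO day 0 replicate 2 or 3, or KO day 39 replicate 3, Mgat4b did not pass (edgeR adjusted p = 0.0897, 0.177 and 0.46).

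Rhbdd3, a membrane protein of the rhomboid family, was not counted in any KO library of day 0 and reached 5475, 5194 and 7375 counts at day 39. The 3 day 39 libraries were close to each other, at 1522 CPM ± 557 (SD, n = 3), at least 4292-fold above the day 0 floor. The log2 fold change was 16.13 with an SE of 3.07 (edgeR adjusted p = 0.000305), and the call was kept on leaving out each of the 6 libraries in turn (highest adjusted p = 0.047, without KO day 39 replicate 3). In WT, Rhbdd3 had 0 and 0 counts early and 10, 0 and 3093 late. Rhbdd3 overlaps Ewsr1 on the opposite strand. Ewsr1 had a mean of 238 CPM in KO day 0 and 0.258 CPM in KO day 39, with overlap between the groups (edgeR adjusted p = 0.273). Whether their 3′ ends overlap was not assessed. The list these 3 genes were placed in was built around them, so their count of 3 among its 23 tested genes says nothing further. Vcp, the gene of p97, had 765, 1377 and 1945 counts early and 4212, 4107 and 2770 late, without overlap and without passing (edgeR adjusted p = 0.482).

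The 2 most abundant RNAs of the KO libraries also rose in the edgeR test, by far smaller factors, and both calls depended on the scaling and the test. Malat1, a long non-coding RNA retained in the nucleus, had 102685, 84951 and 170414 counts across the day 0 KO libraries and 143340, 150384 and 161068 across those of day 39. Scaled to depth, all day 39 libraries were above all day 0 libraries, with means of 12859 CPM ± 3156 (SD, n = 3) and 37733 CPM ± 8366 (n = 3), a ratio of 2.93. The log2 fold change was 1.55 with an SE of 0.30 (edgeR adjusted p = 0.000305), and the call was kept without each library in turn (highest adjusted p = 0.0375). It was lost for Malat1 in 9 of 19 alternative settings, among them DESeq2 (log2 fold change 1.47, adjusted p = 0.733) and the omission of KO day 0 libraries 2 and 3 (1.13, edgeR adjusted p = 0.701), with the direction kept. Rn45s, the precursor of ribosomal RNA, had 481003, 1037113 and 1323531 counts and then 640612, 665802 and 751009. It made up 8.04%, 12.5% and 9.32% of all counts in KO day 0 and 13.9%, 13.7% and 15.99% in KO day 39. These shares did not overlap, although the CPM values did, at 99090 CPM ± 30033 (SD, n = 3) and 171217 CPM ± 42684 (n = 3). The log2 fold change of Rn45s was 0.79 ± 0.15 (SE; edgeR adjusted p = 0.000305). The Rn45s call was lost without KO day 0 replicate 1 or 3 or KO day 39 replicate 3 (edgeR adjusted p = 0.338, 0.33 and 0.0681), with scaling by library size (0.267) and in DESeq2 (0.956), 13 of 19 alternative settings in all. The log2 fold change was 1.08 (edgeR adjusted p = 9.91e-07) without both KO day 0 libraries 2 and 3. As ribosomal RNA largely lacks a poly(A) tail, a share of Rn45s in a 3′ end library also reads how much of it escaped the selection for poly(A), which was not measured. Among the 410 genes with at least 100 counts in each of the 6 KO libraries 3 were called (0.732%), and the median size of the log2 fold change was 0.706.

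**Figure D4:**
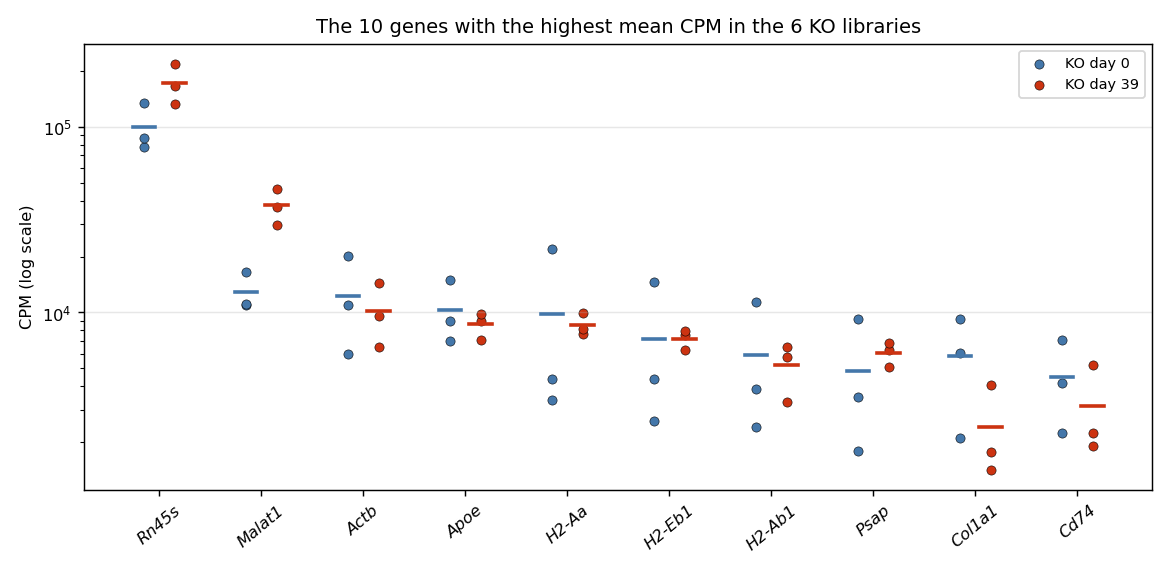
CPM (log axis) of the 10 genes with the highest mean CPM over the 6 KO libraries, 1 point per library, with bars at the group means; day 0 in blue and day 39 in red. Malat1 and Rn45s were called higher at day 39, and the day 0 points of the MHC class II genes H2-Aa, H2-Eb1 and H2-Ab1 are more spread than the day 39 points.

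Tnnc2 encodes the calcium-sensing subunit of troponin in fast skeletal muscle, and Pvalb encodes parvalbumin, a calcium buffer of the same fibres and of some neurons. Tnnc2 had 2628, 21683 and 41046 counts across the day 0 KO libraries and 13, 2 and 10 across those of day 39, and every day 39 library lay far below every day 0 library. The mean was 1966 CPM ± 1337 (SD, n = 3) and then 2.21 CPM ± 1.59 (n = 3), with a log2 fold change of -9.79 with an SE of 1.87 (edgeR adjusted p = 0.000305). The Tnnc2 call was kept without each library in turn (highest adjusted p = 0.0227), but against KO day 0 library 1 alone it did not pass (log2 fold change -7.64, adjusted p = 0.701). Pvalb had 9, 22465 and 30153 counts across the day 0 KO libraries and 3, 1 and 6 across those of day 39. Its groups overlapped, because KO day 0 library 1 was as low as the day 39 libraries, and its log2 fold change of -10.79 with an SE of 2.16 (edgeR adjusted p = 0.000826) came to -0.74 (adjusted p = 1) without KO day 0 libraries 2 and 3. Without KO day 0 replicate 2 alone the adjusted p-value of Pvalb was 0.0559. Tnnc2 overlaps Ube2c on the opposite strand.

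The 250 bases upstream of both genes are shown because the 2 called falls are fast-muscle genes, whose promoters are known to be read by factors that bind the E-box (CANNTG) and the MEF2 motif (searched on both strands; RefSeq, GRCm38.p6). The Tnnc2 sequence is chr2:164779735-164779984, minus strand, with 2 E-boxes in capitals, 183 and 88 bases upstream of the start, and no MEF2 match. The Pvalb sequence is that of the first of 2 start sites, chr15:78206401-78206650, minus strand, with 1 MEF2 match in capitals 180 bases upstream and no E-box. The other Pvalb start site has the reverse, 1 E-box 111 bases upstream and no MEF2 match, and Malat1, which is no muscle gene, has a MEF2 match 119 bases upstream. At least 1 E-box was found in 66.2% of 32851 promoters of this length and a MEF2 match in 2.9%. The table of promoters held 7 of the 11 called genes.
Tnnc2: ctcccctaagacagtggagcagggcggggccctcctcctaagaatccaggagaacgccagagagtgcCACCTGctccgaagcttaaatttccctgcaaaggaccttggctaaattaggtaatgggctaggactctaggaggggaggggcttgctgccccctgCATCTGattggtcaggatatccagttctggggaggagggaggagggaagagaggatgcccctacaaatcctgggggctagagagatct
Pvalb: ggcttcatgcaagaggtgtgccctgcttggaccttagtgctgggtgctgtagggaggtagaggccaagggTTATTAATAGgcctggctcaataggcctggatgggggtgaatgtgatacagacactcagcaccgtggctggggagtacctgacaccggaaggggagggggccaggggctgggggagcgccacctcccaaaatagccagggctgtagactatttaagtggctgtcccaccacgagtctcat

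Of 22 skeletal muscle genes tested, 2 were called lower, Tnnc2 and Pvalb, and 0 higher. This list was chosen with earlier results known, so the number of calls in it says nothing further. A log2 fold change below 0 was found for 16, with a median of -1.61; 6 were lower at an unadjusted p-value under 0.05, against 7.39% of all tested genes, and 2 higher. Without overlap 4 were lower and 2 higher, against 3.21% and 8.07% of all tested genes. Tnnt3, troponin T of fast muscle, had 2543, 32587 and 29016 counts early and 1385, 742 and 13 late, without overlap (log2 fold change -3.68, edgeR adjusted p = 0.273). Acta1, skeletal muscle actin, had 4935, 48708 and 73541 counts across the day 0 KO libraries and 4007, 4502 and 2877 across those of day 39, so libraries 2 and 3 of day 0 were high, and in CPM library 1 lay just below day 39 (edgeR adjusted p = 0.273). Myh4, a fast myosin heavy chain, had 22, 24416 and 52590 counts and then 3978, 6690 and 5482 (edgeR adjusted p = 0.774). Outside the list, the myosin heavy chain gene Myh3 went the other way, with 0, 0 and 1 counts and then 1564, 3 and 5548. Its groups did not overlap in CPM and it did not pass (edgeR adjusted p = 0.273). The summed level of the list was 3976, 32963 and 29898 CPM in KO day 0 and 8959, 6434 and 9001 CPM in KO day 39. The ratio of means was 0.365, and 2.04 against KO day 0 library 1 alone, which turns the direction; the median log2 fold change was then 2.40. Members of the list differed within the KO day 39 libraries. Tnnc2 was at 13 counts or fewer in each, Tnnt3 at 1385, 742 and 13, and Acta1 at 2877 or more in each. Why Tnnc2 fell was not tested.

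Epidermal genes, a list added after the values were seen, followed the same 2 libraries. Of 18 tested, none was called, 18 had a log2 fold change below 0 and 8 were lower at an unadjusted p-value under 0.05, against 7.39% of all tested genes. Their sum was 3715, 30937 and 29242 CPM in KO day 0 and 4646, 2969 and 1794 CPM in KO day 39, a ratio of 0.147, and 0.844 against KO day 0 library 1 alone. The median log2 fold change was -3.09, and 0.21, the opposite direction, without KO day 0 libraries 2 and 3. Krtdap, a secreted protein of differentiating keratinocytes, had 2281, 18224 and 42795 counts and then 362, 872 and 8. Calm4, a calmodulin-like protein of skin, had 811, 9136 and 40111 and then 9, 566 and 11 (edgeR adjusted p = 0.273 for both). Neither Krtdap nor Calm4 passed, and both were likewise named among genes whose groups do not overlap. Stromal genes had 0 calls among 13 tested, 4 above 0 and 9 below, with 2 higher and 0 lower without overlap (8.07% and 3.21% of all tested genes). Their ratio of mean sums was 0.527 and their median -0.38, and both turned, to 1.51 and 1.58, without KO day 0 libraries 2 and 3. The collagen gene Col1a1 had 13203, 71497 and 92940 counts across the day 0 KO libraries and 15724, 9014 and 4936 across those of day 39 (edgeR adjusted p = 0.284). Mgp, matrix Gla protein, had 1, 1 and 0 counts and then 1399, 328 and 1992 (edgeR adjusted p = 0.273). The part of these other cell types' RNA in the calls was not tested.

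Genes of resident macrophages were not called in either direction. Of 24 listed, 22 were tested, 8 with a log2 fold change above 0 and 14 below, and the median was -0.31, or -1.04 without KO day 0 libraries 2 and 3. The ratio of mean sums was 0.923, and 0.549 against KO day 0 library 1 alone. Their sum was 36258, 15942 and 12477 CPM in KO day 0 and 17219, 21903 and 20562 CPM in KO day 39, so the day 39 libraries lay within the range of day 0. KO day 0 library 1 was the highest of the 6, and libraries 2 and 3 were the lowest. Apoe, a lipid carrier, was at 15008, 8990 and 7014 CPM and then 7148, 9044 and 9830 CPM (edgeR adjusted p = 0.891). C1qa and C1qc, chains of the first complement component, were at 3036 CPM ± 3674 and 1400 CPM ± 1106 (SD, n = 3) in day 0 and at 1423 CPM ± 727 and 2514 CPM ± 808 (n = 3) in day 39, with overlap in both (edgeR adjusted p = 0.457 and 0.704). Tyrobp, the adaptor DAP12, had 2347, 4547 and 2180 counts and then 4043, 3133 and 7595, without overlap in CPM (edgeR adjusted p = 0.46). Mertk and Timd4, receptors for dying cells, had 0 counts in all 6 KO libraries.

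MHC class II genes had no call among 11 tested, with a median log2 fold change of 0, and of -0.92 without KO day 0 libraries 2 and 3. With all libraries 5 members were above 0 and 5 below, and the median is the exact 0 of the remaining member. It is thus a poor estimate of a shift. The ratio of mean sums was 0.909, and 0.454 against KO day 0 library 1 alone. H2-Aa was at 21826, 3374 and 4385 CPM in KO day 0 and at 7656, 8117 and 9917 CPM in KO day 39, so KO day 0 library 1 was above and the other two were below every day 39 library. H2-Eb1 had the same order, at 7170 CPM ± 6421 (SD, n = 3) and 7239 CPM ± 869 (n = 3), with an edgeR adjusted p-value of 1. Lysosomal genes, complement genes and Fc receptor genes each had 0 calls, and their KO sums overlapped.

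Cytokine genes had 0 calls among 9 tested and a median log2 fold change of 1.38, or 0.46 without KO day 0 libraries 2 and 3. Il1b, the inflammatory cytokine interleukin-1 beta, had 22294, 4749 and 10572 counts across the day 0 KO libraries and 10526, 16929 and 23139 across those of day 39. Its groups overlapped, at 1628 CPM ± 1693 (SD, n = 3) and 4245 CPM ± 2121 (n = 3), with a log2 fold change of 1.38 with an SE of 0.76 (edgeR adjusted p = 0.294). Il1rn, which blocks the interleukin-1 receptor, had 0, 0 and 2391 counts and then 807, 1160 and 4144, and Hbegf, an epidermal growth factor receptor ligand, had 1, 1 and 0 and then 1200, 1513 and 366. Both Il1rn and Hbegf were higher without overlap and did not pass (edgeR adjusted p = 0.421 and 0.273). Il10, which many resident macrophages secrete, had 0 counts in all 6 KO libraries, and Il6 had 172 counts in 1 of them. Interferon-stimulated genes had 0 calls among 20 tested, and their summed level overlapped between the days, with a ratio of means of 2.35, and 1.15 against KO day 0 library 1 alone. Ifitm3, which blocks the entry of viruses, had 7620, 83 and 3606 counts and then 6203, 9889 and 9566, without overlap in CPM (edgeR adjusted p = 0.293).

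Genes of the prostaglandin and leukotriene pathway had 0 calls among 13 tested of 29 listed, and a median log2 fold change of -0.01, or -1.08 without KO day 0 libraries 2 and 3. Among the receptors, Ptger2 and Ptger3 had 0 counts in all 6 KO libraries and Ptger1 had 11 counts in 1 of them. The inducible enzymes Ptgs2 (cyclooxygenase-2) and Ptges had at most 4 counts in a KO library. Ptgis, which makes prostacyclin, was at 0 throughout day 0 and reached 2, 514 and 1161 counts at day 39, and Cysltr1, a leukotriene receptor, had 0 counts early and 0, 1086 and 0 late (edgeR adjusted p = 0.273 for both). Immediate-early genes, several of which cyclic AMP induces, had 0 calls among 31 tested and a median log2 fold change of 0.34, or -0.26, the opposite direction, without KO day 0 libraries 2 and 3. Jun had 19742, 7579 and 12300 counts and then 7485, 20203 and 11547, with overlap (edgeR adjusted p = 0.556). Klf4, a zinc finger factor of macrophages and epithelium, had 135, 523 and 2498 counts and then 4537, 4735 and 2697, without overlap (edgeR adjusted p = 0.289).

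Erythroid genes were higher as a sum, at 1168, 815 and 1269 CPM in KO day 0 and 5043, 5929 and 7523 CPM in KO day 39, with 0 calls among 5 tested. The sum includes Car1, described above with the colonocyte genes. Hbb-bs, a beta globin, had 5, 2735 and 1557 counts and then 6026, 7394 and 5832, and Hba-a1, an alpha globin, had 5006, 2921 and 16202 and then 7736, 15752 and 7619. In both globins the day 39 CPM were above those of day 0 without overlap, and neither passed (edgeR adjusted p = 0.273 and 0.367). The erythroid marker Slc4a1 had 0 counts in all 6 KO libraries, and the globin genes come in near-identical pairs, so the count of each is uncertain.

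Heat shock genes had a sum of 8703, 10752 and 8747 CPM in KO day 0 and 14220, 14276 and 17322 CPM in KO day 39, without overlap, and 0 calls among 20 tested. Cryab, a small heat shock protein of muscle and lens, had 5, 1866 and 2 counts and then 5376, 4559 and 8662, again without overlap (edgeR adjusted p = 0.273). Hsp90aa1, the inducible form of HSP90, was at 1017 CPM ± 195 (SD, n = 3) and then 2238 CPM ± 457 (n = 3), also without overlap (edgeR adjusted p = 0.543). Proteasome genes went the other way as a sum, at 4619, 4858 and 5247 CPM in KO day 0 and 3568, 1503 and 4435 CPM in KO day 39, with 0 calls among 36 tested and a median log2 fold change of -1.10. Psmb4, a core subunit, had 10, 1691 and 1420 counts and then 0, 0 and 1, while Psmb10, a subunit of the immunoproteasome, had 1, 0 and 0 and then 2352, 7 and 5087 (edgeR adjusted p = 0.273 for both). Without KO day 0 libraries 2 and 3 the proteasome median was 0.54, the opposite direction.

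Ferroportin (Slc40a1), the iron exporter by which macrophages return iron from red cells to the blood, had 2769, 6474 and 2466 counts across the day 0 KO libraries and 0, 0 and 0 across those of day 39. The level was at least 644-fold lower than at day 0 when set against the floor of 3 counts per library, yet it did not pass (log2 fold change -14.46 ± 4.37 SE, edgeR adjusted p = 0.273). In WT its counts were 4640 and 1232 early and 390, 3 and 1 late, again without overlap. Nde1, a dynein regulator of dividing cells, had 2902, 8970 and 5754 counts and then 0, 0 and 0 (edgeR adjusted p = 0.129). Pygm, muscle glycogen phosphorylase, had 13, 16647 and 13229 and then 6, 3 and 4 (edgeR adjusted p = 0.11). Slc40a1 and Nde1 were high in all 3 day 0 libraries, whereas Pygm was high in libraries 2 and 3 alone.

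On the other side, Emilin2, an extracellular matrix glycoprotein, had 1, 0 and 0 counts across the day 0 KO libraries and 4681, 642 and 1106 across those of day 39, and Hk1, a hexokinase, had 0, 0 and 0 and then 1, 1271 and 4422 (edgeR adjusted p = 0.273 and 0.247). Dctn3, a dynactin subunit, came closest to passing (edgeR adjusted p = 0.0718), with 1, 0 and 0 counts and then 2667, 1 and 4969. Its day 39 library 2 was no higher than day 0 library 1 in counts, so that the separation of the groups rests on the scaling. In all, 65 genes (0.93%) had at least 100 counts in each KO day 39 library and 10 or fewer in each KO day 0 library. The reverse held for 63 genes (0.902%). These are limits on unscaled counts, and the day 0 libraries were deeper, so the 2 numbers are not on equal terms.

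The change over time was compared with that in WT by the interaction contrast, which asks whether it differed between the genotypes. No gene passed in edgeR (0 of 6987, 0%); at an unadjusted p-value under 0.05 there were 1006 (14.4%). For the same interaction DESeq2 called 934 and limma-voom 13. Over time in WT alone edgeR called 1 gene (0.0143%), Cryab. The KO and WT time contrasts share no library. Of the 9 called rises 8 had a log2 fold change above 0 in WT, and of the 2 called falls none was below 0. Some of these WT values were small against their SE, such as 0.23 ± 1.87 for Lgals6 and 0.74 ± 2.13 for Mgat4b. The share of all tested genes above 0 in WT was not counted, so the signs do not show a shared change. Malat1 was at 0.82 ± 0.33 (SE) in WT and Sprr2a2 at 2.73 ± 1.39, against 1.55 and 5.97 in KO, with interaction adjusted p-values of 0.41 and 0.354 in edgeR. Tnnc2 counts in WT were 2095 and 1521 at day 0 and 307, 11461 and 2223 later, so the WT libraries overlapped where the KO libraries were far apart. The interaction of Tnnc2 was -11.08 ± 2.53 (SE) and that of Lgals6 12.93 ± 3.0, both just short of the threshold (edgeR adjusted p = 0.0583). Lgals6 had 1 and 3813 counts in WT day 0 and 1063, 6843 and 1 in WT day 39. Colonocyte genes were not higher in KO alone: their WT sums were 829 and 3383 CPM at day 0 and 14236, 6521 and 5740 CPM at day 39.

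**Figure D5:**
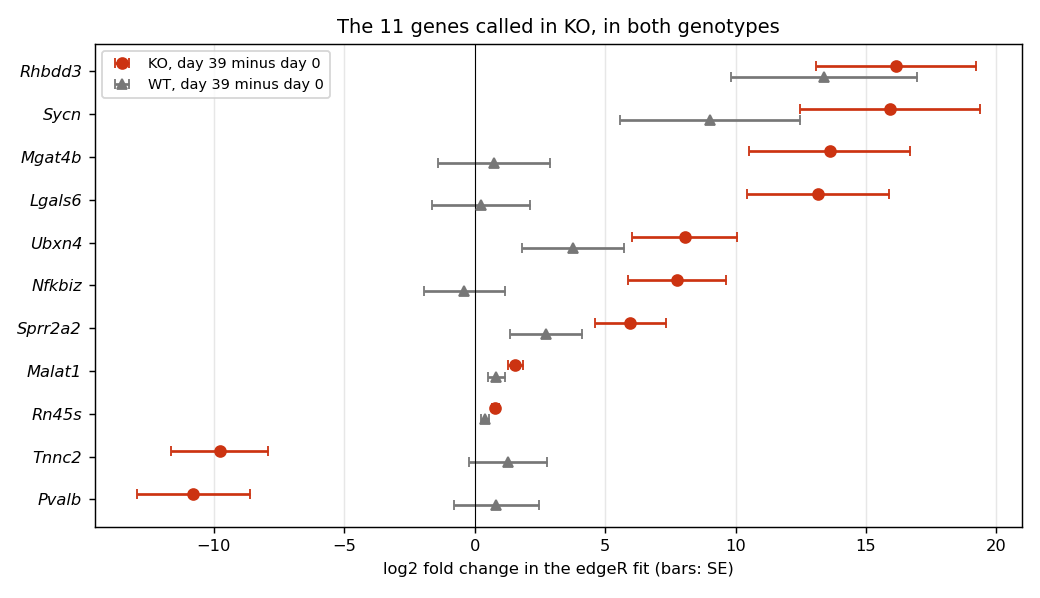
Log2 fold change from day 0 to day 39 (edgeR fit; bars are SE) of the 11 genes called in KO, with KO in red circles and WT in grey triangles. Malat1, Sprr2a2, Ubxn4, Sycn and Rhbdd3 lie above 0 in both genotypes, Tnnc2 and Pvalb are far below 0 in KO and near 0 in WT, and no difference between the genotypes passed.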

How the data were processed

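Expression was measured in 11 libraries by 3′ end RNA sequencing. Each deposited file lists raw counts, as whole numbers, for every gene symbol. RNA was taken with Trizol and libraries made with a Lexogen QuantSeq kit, per the labels' protocols. The submitters' processing notes name Bowtie2, edgeR and the human build hg19, without roles or versions, although the symbols are mouse; strand setting, filters and use of molecular identifiers are not given in the sources used here. Gene positions are therefore not given for the counts, and promoter positions are those of RefSeq sequences.

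Of 23282 entries (44 symbols repeated), 6987 were kept by filterByExpr and tested in edgeR 4.0.16 (R 4.3.3) with TMM scaling and a robust quasi-likelihood fit of 1 coefficient per group to all 11 libraries. P-values are two-sided, with Benjamini-Hochberg adjustment and a threshold of 0.05. Standard errors are the log2 fold change over the square root of F. CPM are counts over the TMM-scaled sum of tested genes. The floor is 3 counts per library; floors and counting intervals cover counting error only. Nothing says the replicates came from separate mice, so p-values measure the spread between these libraries, which may be technical. The fit was also run on simulated counts with the same spread for every gene. The real libraries are less even, so that run says nothing about the calls.

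Named genes are all called genes; 8 rises and 8 falls with the smallest p among those with at least 100 CPM and no overlap; Ptger4 and sort markers; per list the 2 highest and the 2 with the smallest p; and the 10 most abundant. Others were chosen after their values were seen. The comparison, lists and tests were chosen with earlier results of these data known. Same-numbered libraries of the 2 days did not deviate together (r = -0.00546, -0.0137 and 0.00913), so numbers were not treated as pairs. Alternatives used DESeq2 1.42.0, limma 3.58.1, other scalings and filters, a replicate block and left-out libraries.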

Additional observations from a re-analysis of the deposited data

How the results depend on the processing

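The 11 calls over time in KO depended strongly on the processing. DESeq2 gave 1144 (553 higher, 591 lower, 9 of the 11 among them) and limma-voom 193 (135 higher, 58 lower, 7 shared). Counts of 10 or fewer set to 0 gave 6, a filter at a mean of 10 counts 5 and at 1000 counts 1, a fit of KO libraries alone 5, and upper quartile or no filter 0 (1405 and 1261 genes at an unadjusted p under 0.05). Without KO day 0 libraries 2 and 3, an alternative chosen after seeing the data like that on counts of 10 or fewer, there were 2. Leaving out 1 library gave 6 to 15, lowest without KO day 0 replicate 3 or KO day 39 replicate 3 and highest without KO day 0 replicate 1. No called gene changed direction under a setting that tested it; Pvalb was not tested in the fit of KO libraries alone or with the replicate block.

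The interaction, with 0 calls, gave 934 calls in DESeq2 and 13 in limma-voom. Upper quartile scaling gave 5, a fit that was not robust 4, size factors from DESeq2 and scaling by library size 2 each, and there was 1 with counts of 10 or fewer set to 0, and 0 to 8 on leaving out 1 library (8 when KO day 0 replicate 1 was absent, 1 and 3 for replicates 1 and 3 of KO day 39). A fit of only the groups compared is the same fit for it.

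With the replicate block the KO time contrast gave 12 calls, 7 of them among the 11, and the interaction 0; Malat1 (adjusted p = 0.142), Rn45s (0.881) and Mgat4b (0.0725) did not pass there. Same-numbered libraries share only a number, and the number of 1 WT day 0 library is uncertain, 2 in its title and 3 in its file.

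The median log2 fold change of tested genes with a KO count was -0.02 under TMM and -0.28 under library size only, so all directions are relative to that shift. Medians of 14 of 41 lists changed sign without KO day 0 libraries 2 and 3, and of 10 of 41 without KO day 0 replicate 1 alone. With the replicate block 9 of 36 changed sign. The cause was not tested.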

Other observations

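Glycolysis, actin cytoskeleton, ribosomal protein, oxidative phosphorylation, lipid and chemokine genes had 0 calls over time in KO, and their summed levels overlapped between the days, apart from ribosomal protein genes, which were lower without overlap when scaled by library size only. Cxcl2, a neutrophil-attracting chemokine, had 19320, 5408 and 2405 counts across the day 0 KO libraries and 7494, 4906 and 7112 across those of day 39 (edgeR adjusted p = 0.969). Pf4, platelet factor 4, which tissue macrophages also express, had 6382, 1226 and 4370 and then 3, 5160 and 5996 (edgeR adjusted p = 0.874). Of other blood cells, the summed levels of T and NK cell genes ran from 0.161 to 341 CPM over the 6 KO libraries, those of B and plasma cell genes from 0 to 416 CPM (416 CPM being Xbp1 alone, which is also on the secretory pathway list) and those of neutrophil genes from 0.257 to 236 CPM, with overlap between the days in each. Cd3e and Mpo had 0 counts in all 6, and S100a8 had at most 42.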
